A study of Mus musculus with 24 samples.

Results

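The genes described here were more abundant in pre-granulosa cells than in Sertoli cells at stage E11.5 (named by embryonic day) and more abundant in Sertoli cells at E15.5, so that the side with the higher level switched between these stages. The 100 members were chosen by the deposited TPM values (transcripts-per-million, a level corrected for transcript length) of these same 2 stages. For each gene, the E11.5 excess of XX over XY and the E15.5 excess of XY over XX were taken as log2 ratios of group means with 1 TPM added, and genes were ranked by the smaller of the 2 excesses. Of 32040 gene symbols, 23928 were open to the ranking once symbols containing -ps or beginning with Gm and a digit had been left out. Among these 23928 symbols, 3094 had both excesses above 0, and the first 100 were taken. The E11.5 and E15.5 levels are therefore a description with no test. Only differences between groups of E12.5 and E13.5, stages that the ranking did not use, were tested. The fit behind these tests estimated the spread from all 24 libraries, those of E11.5 and E15.5 included.

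RNA was measured in 24 libraries of cells sorted by fluorescence from mouse fetal gonads, with 3 libraries for each sex at each of 4 stages. Between the outer stages E11.5 and E15.5, these are E12.5 and the stage after it, E13.5. The XX cells were pre-granulosa cells of the Tg(Enh8-mCherry) line, sorted by a transgene whose red fluorescent protein is driven by the Enh8 enhancer, and the XY cells were Sertoli cells of the SOX9-IRES-GFP line, sorted by green fluorescent protein made with SOX9. Sex, mouse line and fluorophore changed together, so every XX minus XY difference is between these 2 kinds of sorted library and their parts cannot be told apart. The labels do not say whether replicates came from separate animals, so the p-values measure the spread between these libraries, which may be technical. In sorted bulk samples, fewer cells of a type and less RNA per cell cannot be told apart.

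As background, pre-granulosa and Sertoli cells are the supporting cells of the fetal ovary and testis, and both arise from the same somatic precursors. In XY gonads, SRY and then SOX9 start the Sertoli programme, with AMH, FGF and later inhibin signals, while WNT4, RSPO1, FOXL2 and RUNX1 act in the pre-granulosa lineage. The members share a pattern of levels and not a pathway, and they are taken below by the roles their products are known for.

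Most cell type markers went with the labels. Summed TPM of 18 Sertoli markers was between 1215.6 and 15768 in XY libraries and between 157.33 and 307.26 in XX libraries. Summed TPM of 14 pre-granulosa markers was higher in XX from E12.5 on, but at E11.5 it was between 2637 and 3140.5 in XX and between 4929.6 and 5763.3 in XY. Kctd14 made up most of that sum, with group means of 1988.1 TPM in XX E11.5 and 5166.6 TPM in XY E11.5. Of the 14 markers, 12 had the higher mean in XX E11.5, among them Fst, Wnt4, Rspo1, Msx1 and Foxl2, and only Kctd14 and Lgr5 had the higher mean in XY E11.5. The XX E11.5 libraries stood apart by blood RNA: the sum of 8 erythroid markers, globins mostly, was 26348, 7489.6 and 63179 TPM in replicates 1, 2 and 3, against at most 61.23 TPM in XY E11.5 and at most 3472.8 TPM in any later XX library. The sum of 10 immune markers was between 221.22 and 599.13 TPM in XX E11.5, between 52.02 and 96.25 TPM in later XX libraries and at most 3.68 TPM in XY. No member is in the Sertoli, pre-granulosa, germ or immune list. Alas2 is in the erythroid list, Pecam1 in the endothelial list, Insl3 in the steroidogenic list, and Hspa1a and Hspa1b are in the dissociation list.

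The switch was made of lower levels in XX and higher levels in XY in nearly equal measure. The median member had a group mean of 7.83 TPM in XX E11.5, then 3.61, 2.63 and lastly 1.55 TPM over the later XX stages, while the medians over the XY stages were 2.43, 5.26, 6.83 and 8.71 TPM. From E11.5 to E15.5, 83 members were both lower in XX and higher in XY, 8 were only lower in XX and 9 were only higher in XY. The median decrease in XX was 1.59 and the median increase in XY was 1.57 on the log2(TPM + 1) scale, and the XX part was the larger in 56 members. Few members were of high abundance: 9 reached a group mean of 100 TPM, and 38 never reached 10 TPM. The 3 XX libraries lay above the 3 XY libraries in 70 members at E11.5, where 16.3% of the 15508 genes with at least 1 TPM in some group did so, and the XY libraries lay above the XX libraries in 95 members at E15.5, where 37.9% of these genes did so. Both stages chose the members, so nothing is read from these shares.

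**Figure D1:**
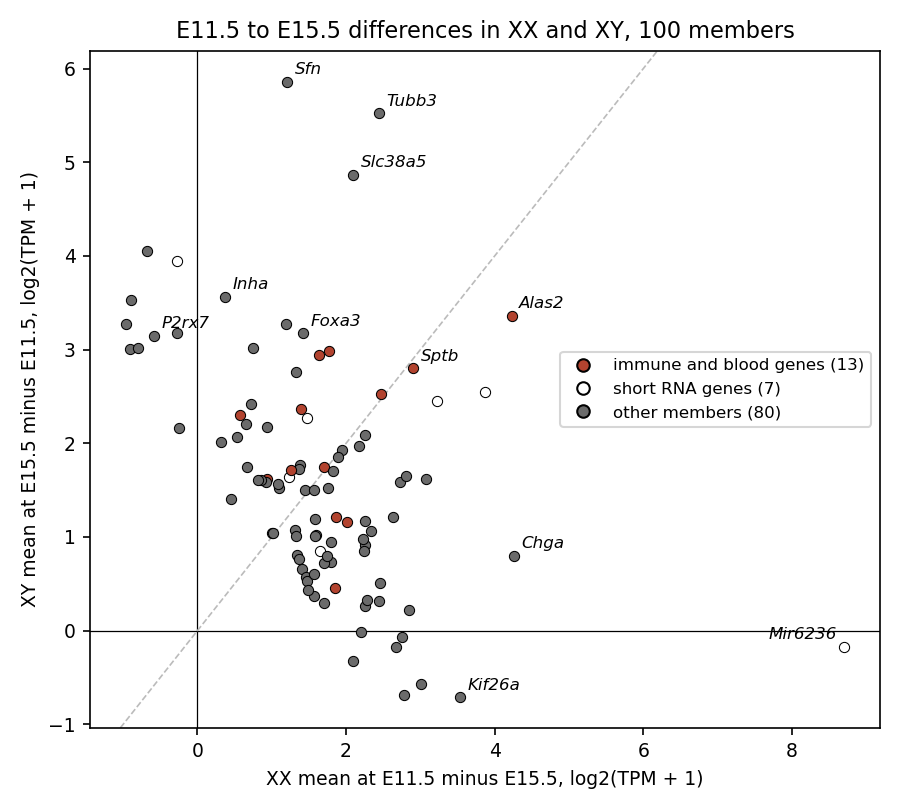
Each point is 1 of the 100 members. The x axis is the XX group mean at E11.5 minus E15.5 and the y axis the XY group mean at E15.5 minus E11.5, both on the log2(TPM + 1) scale; the dashed line marks equal parts. Alas2 and Sptb combine both parts, Tubb3, Slc38a5, Sfn and Inha lie above the line with larger XY increases, and Chga, Kif26a and Mir6236 lie below it with larger XX decreases.

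The score by which genes were ranked ran from 4.03 down to 0.85, with a median of 1.1. The last members inside were Col4a1 with 0.85437, Sfn with 0.85193 and Elavl4 with 0.84919, and the first genes outside were Mef2d with 0.84899, C2cd4b with 0.84031 and Kdelr2 with 0.8395. These values are nearly continuous, so the end of the list is a matter of its length. Membership also leaned on single libraries: 75 members were kept without XX E11.5 replicate 3, 82 without replicate 1 and 81 without replicate 2, while leaving out any of the other 9 libraries kept between 84 and 97. A pseudocount of 0.1 in place of 1 kept 57, the group median kept 77 and CPM, library-scaled counts, kept 71. The 46 members kept whichever of the 12 libraries was left out include Alas2, Sptb, Tubb3, Slc38a5, Inha, Scn3b and Rhobtb2, but neither Foxa3 nor Hspa1a.

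At E13.5, most members were on the Sertoli side. Of the 94 members with enough counts to be tested, 68 were higher in XY at E13.5 (72.3%, against 33.3% of all 16190 genes tested) and 5 were higher in XX (5.32%, against 32.8%), at an adjusted p under 0.05 in edgeR's quasi-likelihood test. The median log2 difference, XX minus XY, was -1.29 over members and 0.005 over all genes. At E12.5, 40 members were higher in XY (42.6%, against a background of 31.5%) and 18 were higher in XX (19.1%, against 30.5%), with a median of -0.53 over members and -0.005 over all genes. Of the members chosen for an XX excess at E11.5, 18 were thus called higher in XX 1 day later and 5 after a further day. Without the 13 immune and blood genes and the 7 short RNA genes, 55 of the remaining 80 members were higher in XY and 5 higher in XX at E13.5, and 32 and 17 at E12.5. The 6 members that could not be tested were Mir6357, Mir1903, Mir3618, Mir546, Mir8101 and Snord4a, with at most 9.17 counts in any library.

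**Figure D2:**
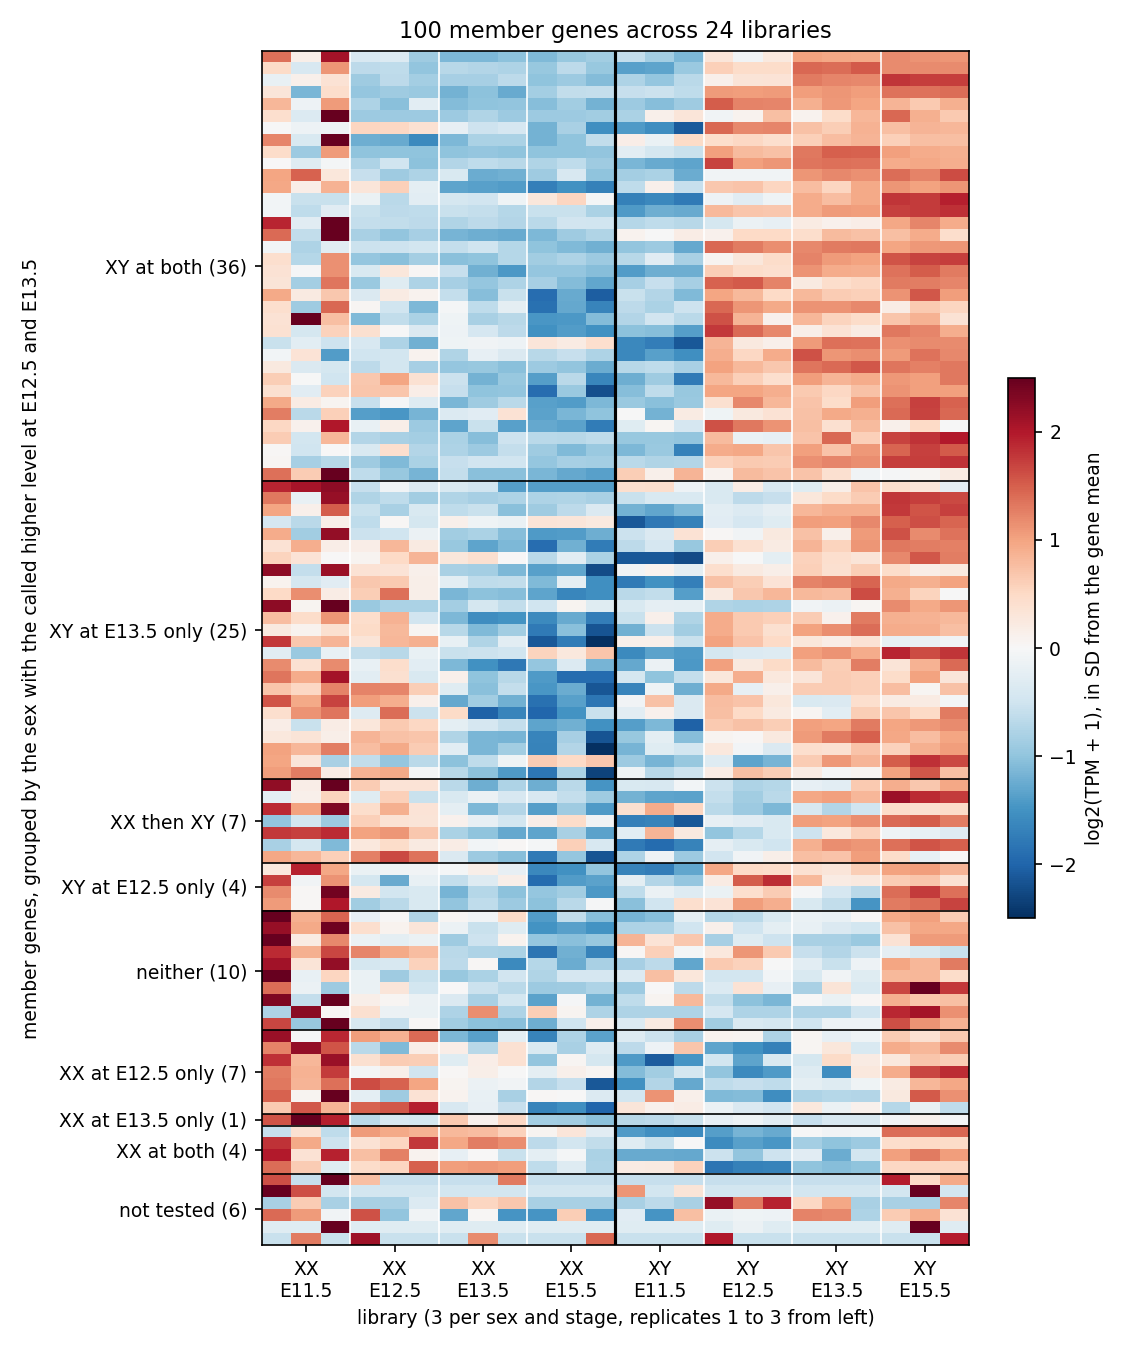
Rows are the 100 members, grouped by the sex in which each was called higher at E12.5 and E13.5, and columns are the 24 libraries in replicate order within groups. Colour shows log2(TPM + 1) in SD from the mean of each gene, with values beyond 2.5 SD drawn in the end colours. The XX E11.5 columns and the later XY columns are red in most rows, XX E11.5 replicate 3 most often; 36 members form the top block, higher in XY at both inner stages.

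The level moved on both sides between E12.5 and E13.5. In XX, 27 members fell (28.7%, against 17.4% of all genes tested) and 4 rose (4.26%, against 14.2%). In XY, 28 rose (29.8%, against 8.02%) and 6 fell (6.38%, against 8.62%). The change of the XX minus XY difference itself was towards XY in 35 members (37.2%, against 13.8%) and towards XX in 3 (3.19%, against 11.3%), with a median of -0.8 on the log2 scale. By their calls at both stages, 36 members were higher in XY at each (38.3%, against 23.4% of all genes tested), 25 were higher in XY at the later stage only (26.6%, against 8.4%) and 4 at the earlier only (4.26%, against 7.03%). Another 7 were higher in XX first and in XY a day later (7.45%, against 1.58%). In XX, 7 were higher at the earlier stage only (7.45%, against 6.58%), 4 at both (4.26%, against 22.3%) and 1 at the later only (1.06%, against 9.29%), while 10 were not called at either (10.6%, against 20.3%). When only the libraries of these 2 stages were fitted, 8 members rose in XX and 7 moved towards XX.

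**Figure D3:**
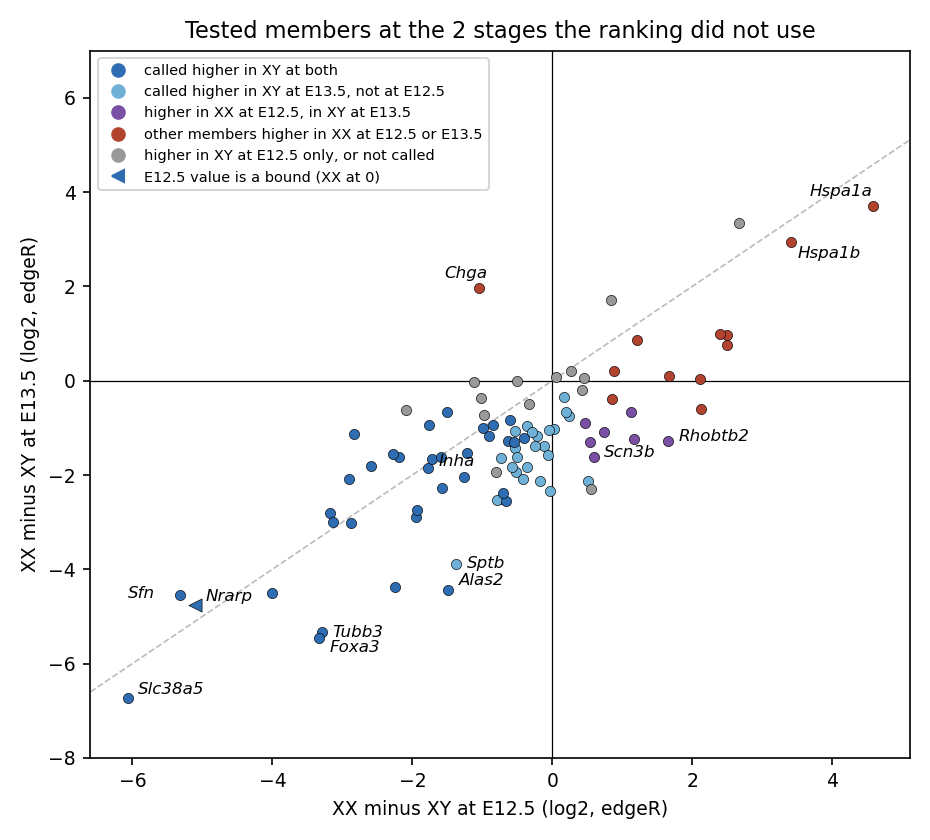
Each point is a tested member, with the edgeR log2 difference XX minus XY at E12.5 on the x axis and at E13.5 on the y axis; negative values mean higher in XY and the dashed line marks equality. Nrarp is drawn as a triangle at a bound for E12.5, since all 3 XX libraries were at 0. The dark blue points, higher in XY at both stages, reach to -6.07 and -6.74 for Slc38a5, and the heat shock genes Hspa1a and Hspa1b lie at the upper right.

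After the microRNA gene Mir6236, blood-cell genes led the ranking. Among the 13 members given the role immune and blood, 8 were higher in XY and 1 in XX at E12.5, and 12 were higher in XY and 0 in XX at E13.5, with medians of -1.49 and -2.74. The red-cell members, picked out after their values were seen, include Alas2, which makes the first enzyme of heme synthesis in the erythroid lineage, Fam210b, a mitochondrial protein that takes part in heme synthesis, Sptb, Ank1 and Tmod1, which build the membrane skeleton of red cells, and Xk, a membrane protein of the Kell blood group complex. Alas2 had 38.0, 8.29 and 90.1 TPM in XX E11.5 and 2.79, 1.81 and 1.04 TPM in XY E11.5. It was between 1.70 and 4.19 TPM in XX E12.5 and between 1.03 and 1.79 TPM in later XX libraries. The XY libraries held 10.1, 6.04 and 9.27 TPM at E12.5, then 24.4, 23.0 and 22.6 at E13.5 and finally 30.3, 28.0 and 27.6 at E15.5. The sexes did not overlap at any stage, and the order was opposite at E11.5 and later. Alas2 differed by -1.49 (SE 0.53, adjusted p 0.0197) at E12.5 and by -4.44 (SE 0.62, adjusted p 2.9e-06) at E13.5. The E12.5 call was lost without XX E12.5 replicate 3 (-1.07, adjusted p 0.111), without XY E12.5 replicate 1 (-1.29, adjusted p 0.0679) and without XY E12.5 replicate 3 (-1.41, adjusted p 0.0502).

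The sequences before the start sites of 3 red-cell members are shown because these genes led the ranking and were higher together in the same XX E11.5 libraries and in later XY libraries. They are the 250 bases upstream of the RefSeq start on build GRCm38.p6 (mm10), read 5′ to 3′ on the strand of the gene. Capitals mark matches to the motifs searched on either strand. Alas2 (chrX:150547167-150547416, plus strand) holds a match to the NR5A motif AAGGTCA, one to the reverse complement of the TATA motif and one to the reverse complement of the GATA motif AGATAA. Sptb (chr12:76710548-76710797, minus strand) holds a match to the SOX motif AACAAT, and Fam210b (chr2:172345327-172345576, plus strand) holds none.
Alas2: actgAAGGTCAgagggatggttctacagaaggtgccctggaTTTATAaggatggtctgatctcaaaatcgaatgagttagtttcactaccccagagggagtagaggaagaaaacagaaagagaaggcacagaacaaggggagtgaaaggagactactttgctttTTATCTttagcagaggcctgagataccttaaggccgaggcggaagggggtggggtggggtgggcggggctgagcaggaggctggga
Sptb: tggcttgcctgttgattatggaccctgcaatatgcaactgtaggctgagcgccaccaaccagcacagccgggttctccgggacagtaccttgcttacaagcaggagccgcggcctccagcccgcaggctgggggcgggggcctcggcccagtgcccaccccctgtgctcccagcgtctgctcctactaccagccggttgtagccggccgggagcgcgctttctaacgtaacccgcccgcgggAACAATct
Fam210b: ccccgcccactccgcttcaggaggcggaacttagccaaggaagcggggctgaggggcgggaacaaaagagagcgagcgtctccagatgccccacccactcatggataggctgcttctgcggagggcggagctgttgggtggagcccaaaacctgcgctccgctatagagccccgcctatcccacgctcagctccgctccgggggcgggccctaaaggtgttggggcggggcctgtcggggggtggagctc

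Across members, 64 had a promoter in the RefSeq table, with 92 start sites among the 32851 listed. The SOX motif AACAAT was in 4.35% of member promoters and 9.42% of all promoters, and ACAAAG, the other SOX core, in 13% and 16.5%. The GATA motif was in 4.35% and 9.99%, the NR5A motif in 1.09% and 4.08%, and the TATA motif TATAAA in 4.35% and 12.4%. The AP-1 motif TGACTCA (3.26% and 4.46%), the E-box CACGTG (6.52% and 6.02%) and CCAAT (32.6% and 33.8%) were found at shares closer to those of all promoters. These shares are a description, and start sites of 1 gene share sequence.

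Sptb, the beta chain of spectrin, followed the same course at lower levels. It had 6.67, 1.01 and 15.7 TPM in XX E11.5, 0.43, 0.67 and 0.67 TPM in XY E11.5, and at most 0.33 TPM in any later XX library. Its XY values were 0.68, 0.31 and 0.40 TPM at E12.5, then 2.07, 2.64 and 3.14 at E13.5 and later 10.8, 10.1 and 9.43 at E15.5. XX libraries were above XY only at E11.5, and the XY level rose by 2.49 on the log2 scale from E12.5 to E13.5 (SE 0.58, adjusted p 0.00512). The XX minus XY difference was -1.37 at E12.5 (SE 0.68, adjusted p 0.0876) and -3.88 at E13.5 (SE 0.67, adjusted p 4.11e-05). Without XX E11.5 replicate 2 or replicate 3, the E12.5 difference passed the test, with -1.31 in both fits and adjusted p of 0.0102 and 0.0403. Fam210b had 18.7, 8.11 and 32.9 TPM in XX E11.5 and between 2.94 and 4.67 TPM in XY E11.5. At E13.5 it had 44.0, 42.6 and 48.0 TPM in XY and between 5.58 and 6.05 TPM in XX, a difference of -2.89 (SE 0.30, adjusted p 3.81e-08). Ank1 differed by -4.49 at E13.5 (adjusted p 1.27e-05).

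Markers of several other cell types had the same order of XX E11.5 replicates as these genes. Of the 12 marker lists, the erythroid, immune, germ, and interstitial and stromal sums were lowest in replicate 2 and highest in replicate 3. The sum of 10 interstitial and stromal markers was 399.02, 198.92 and 1084.9 TPM in replicates 1, 2 and 3, and between 457.84 and 810.1 TPM in XY E11.5. Among the 13 immune and blood members, 12 had this order, all but Pecam1. The order was not particular to that role. It was found in 46 of all 100 members and in 20.9% of the 15508 genes with at least 1 TPM in some group. It was also found in 12 of 19 receptor and signalling members and 8 of 15 transcription and chromatin members, with smaller shares in the other roles. These libraries chose the members, so the order is a description, and the part of any of these cells in the XX E11.5 excess was not tested. In XY, the erythroid sum, which holds Alas2 itself, was at most 61.23 TPM at E11.5, at most 71.31 TPM at E13.5 and between 183.97 and 280.22 TPM at E15.5. In XX E13.5 it was between 1142.2 and 1314.5 TPM. The part of blood cells in the XY levels was not tested.

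**Figure D4:**
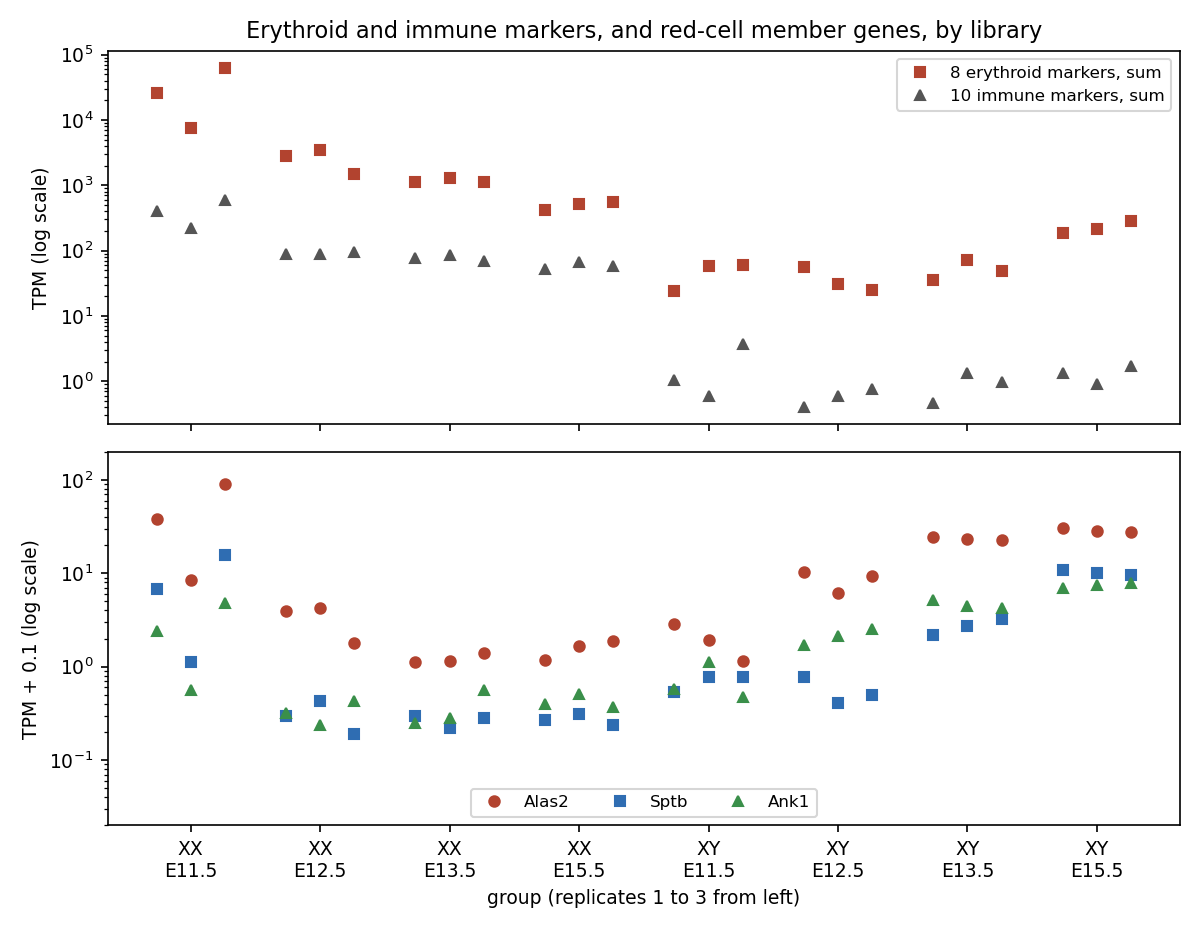
The upper panel shows the summed TPM of 8 erythroid markers and of 10 immune markers in each of the 24 libraries on a log scale, and the lower panel TPM + 0.1 of Alas2, Sptb and Ank1 in the same libraries, also on a log scale. In XX E11.5, genes and markers share the order of replicates, lowest in replicate 2 and highest in replicate 3. In XY from E12.5 to E13.5 Alas2 is between 6.04 and 24.4 TPM and the erythroid sum at or below 71.31 TPM.

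The immune-signalling members were expressed at a few TPM in XY cells. Arhgap9, a GTPase-activating protein of blood cells, had 4.55, 2.0 and 7.03 TPM in XX E11.5 and at most 0.26 TPM in XY E11.5. Later XY libraries had 1.29, 1.17 and 1.35 TPM at E12.5, then 3.94, 4.23 and 4.20 at E13.5 and finally 7.41 to 8.56 at E15.5, above every XX library of those stages. The difference was -0.79 at E12.5 (SE 0.39, adjusted p 0.083) and -2.54 at E13.5 (SE 0.39, adjusted p 8.24e-06). Exons of Arhgap9 overlap those of Gli1 on the opposite strand, and how strand was used in counting is not given in the sources used here. Pik3ap1, an adaptor of PI3-kinase signalling in B cells, was 8.65, 7.07 and 6.21 TPM in XY E12.5 and 3.15, 3.65 and 3.30 TPM in XY E13.5. It fell in XY by 1.15 on the log2 scale (SE 0.21, adjusted p 0.00076), and its difference of -0.65 at E13.5 (adjusted p 0.0126) lost the call without XX E13.5 replicate 2 (-0.55, adjusted p 0.0685) or replicate 3 (-0.57, adjusted p 0.0561), or without XY E13.5 replicate 2 (-0.52, adjusted p 0.0686). Rac2, a GTPase of blood cells chosen after its values were seen, was the 1 gene of this role higher in XX at E12.5, with 7.24, 8.88 and 8.83 TPM against 3.07, 1.04 and 3.36 TPM in XY. Its difference was 1.67 (SE 0.30, adjusted p 5.7e-05). The immune marker sum in XY E12.5 was at most 0.77 TPM, with 7 of the 10 markers listed at 0 in all 3 libraries. In XX E12.5 that sum was between 89.59 and 96.25 TPM, and the part of immune cells in the levels of these members was not tested.

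Several structural and transport genes went from low levels to strong Sertoli expression. Tubb3, a beta-tubulin best known from neurons, had 4.26, 7.33 and 10.8 TPM in XX E11.5 and 1.19, 0.62 and 1.49 TPM in XY E11.5. Its XY values were 7.38, 10.2 and 10.4 TPM at E12.5 and 47.9, 41.8 and 41.2 at E13.5, and it was between 92.5 and 101.4 TPM at E15.5. The XX libraries held at most 1.61 TPM from E12.5 on, so the groups were far apart. Its difference was -3.29 at E12.5 (SE 0.33, adjusted p 3.2e-08) and -5.34 at E13.5 (SE 0.35, adjusted p 2.9e-11), and the XY step was 2.20 (SE 0.27, adjusted p 1.21e-05). Slc38a5, a transporter of glutamine and other neutral amino acids, had 19.9, 0.74 and 25.8 TPM in XX E11.5 and 3.64, 3.83 and 3.14 TPM in XY E11.5, so XX replicate 2 lay below all XY libraries. In XY it was 77.4, 74.2 and 76.9 TPM at E12.5 and between 74.8 and 83.2 TPM at E13.5, while XX was at most 1.69 TPM. The difference was -6.07 (SE 0.69, adjusted p 3.13e-07) and then -6.74 (SE 0.76, adjusted p 2.08e-07), with no step in XY (0.02, adjusted p 0.999), so the XY level at E12.5 was near that of E13.5.

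**Figure D5:**
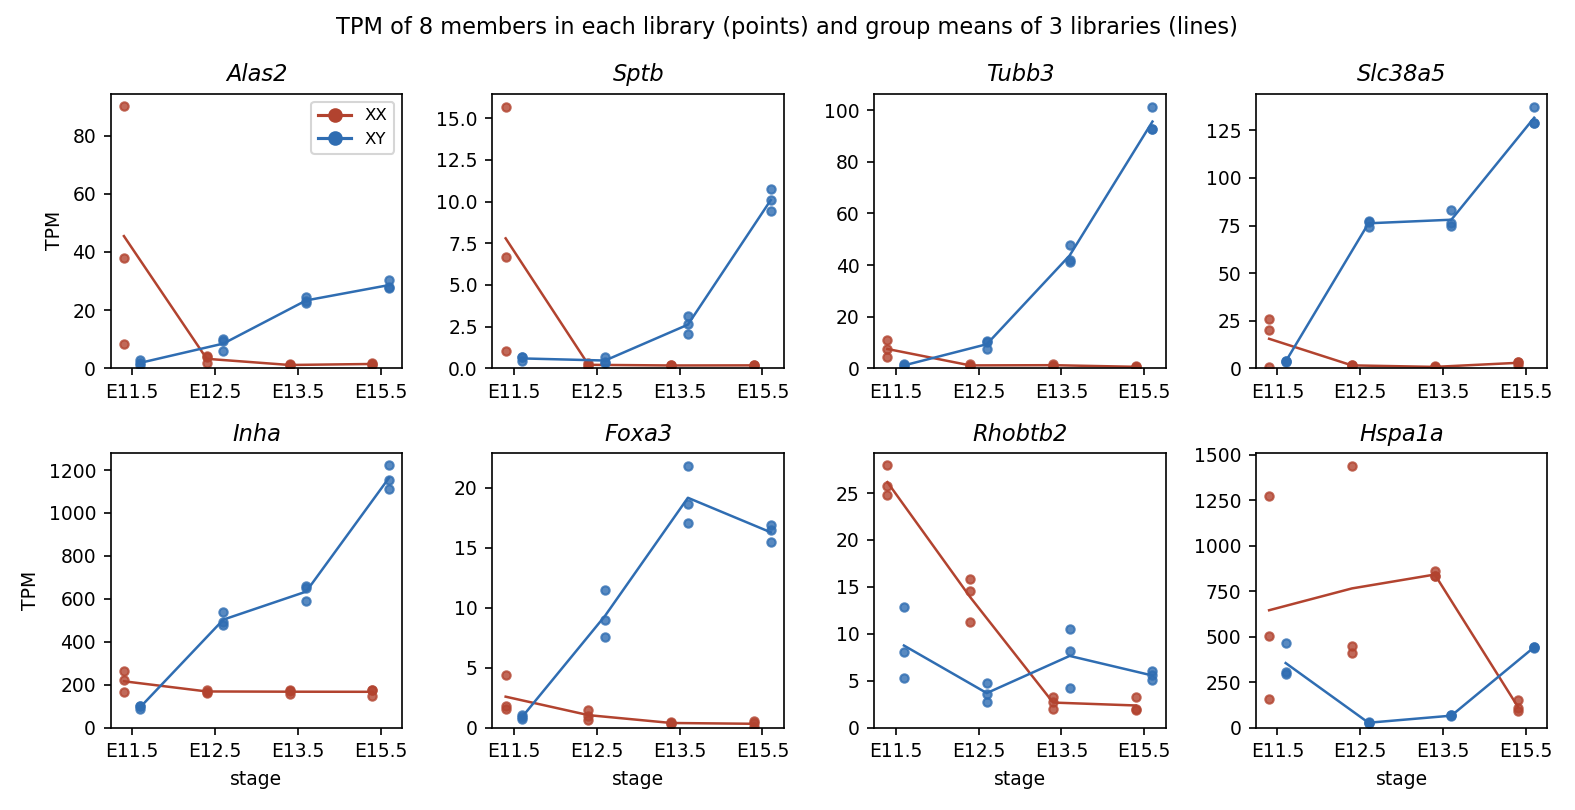
Points show the TPM of 8 members in each of the 24 libraries and lines join the group means of 3 libraries, with stage on the x axis and a linear TPM axis from 0 for each gene. In the first 6 panels XY passes XX by E12.5 or E13.5, in Rhobtb2 it does so at E13.5, and in Hspa1a XX is above XY at both inner stages and below it at E15.5.

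Sfn, which encodes the 14-3-3 sigma protein, had 6.21, 0.68 and 1.12 TPM in XX E11.5 and 1.2, 0.93 and 0.97 in XY E11.5. Its place in the list thus came from XX E11.5 replicate 1. The XY level was 16.1, 18.5 and 17.7 TPM at E12.5, then 43.1, 48.0 and 44.7 at E13.5 and finally 111.8 to 128.1 at E15.5, and XX held at most 1.99 TPM at these stages. The difference was -5.32 at E12.5 (SE 0.52, adjusted p 2.4e-08). Col4a1, a chain of basement membrane collagen, was among the more abundant members, with 34.7, 25.8 and 34.5 TPM in XX E11.5 and 18.1, 20.1 and 12.97 in XY E11.5. It reached 57.6, 59.3 and 50.6 TPM in XY at E12.5 and between 77.3 and 89.4 at E15.5, and its differences were -1.27 at E12.5 and -2.05 at E13.5 (SE 0.27 and 0.28, adjusted p 0.000388 and 1.93e-06). Cspg4, a chondroitin sulfate proteoglycan of the cell surface, was 13.8, 14.4 and 11.9 TPM in XY E12.5, fell by 1.10 in XY by E13.5 (SE 0.34, adjusted p 0.0315), and stayed above XX at both stages. Of the 8 matrix, adhesion and cytoskeleton members, 3 were higher in XY and 2 in XX at E12.5, and 6 and 0 at E13.5.

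Among secreted factors, Inha, the alpha subunit of inhibin, was the most abundant member with a Sertoli role, and is shown here after its values were seen. It had 262.5, 166.9 and 220.9 TPM in XX E11.5 and 88.5, 103.5 and 100 TPM in XY E11.5. In XX it then stayed between 147.3 and 178.4 TPM, while XY libraries held 541.0, 490.6 and 479.3 TPM at E12.5, then 591.1, 660.9 and 650.5 at E13.5 and finally 1113, 1155 and 1222 at E15.5. Groups did not overlap at any stage, and the switch came mostly from XY. The differences were -1.77 and -1.86 (SE 0.10 for both, adjusted p 3.6e-12 and 1.65e-12), and the XY step of 0.31 passed the test (SE 0.10, adjusted p 0.0379). Fgf18, Jag1 and Insl3 were likewise chosen after their values were seen. Fgf18, a fibroblast growth factor, was 14.1, 7.99 and 8.57 TPM in XY E12.5 and at most 1.78 TPM in XX E12.5 (-3.17, SE 0.27, adjusted p 1.41e-09). The Notch ligand Jag1 had 9.65, 2.53 and 25.4 TPM in XX E11.5 and 4.15, 3.09 and 5.34 TPM in XY E11.5, so XX replicate 2 lay below all XY libraries. At E12.5 Jag1 was between 5.15 and 5.55 TPM in XY and at most 0.99 TPM in XX (-2.91, SE 0.51, adjusted p 4.97e-05). Insl3, a hormone of Leydig cells, was between 5.25 and 14.1 TPM in XY E15.5 and at most 1.46 TPM at the inner stages. Its exons overlap those of Jak3 on the same strand, so reads of these members could have been divided between them. The sum of 5 steroidogenic markers, which holds Insl3 itself, was 52.07, 91.86 and 60.09 TPM in XY E15.5 replicates 1, 2 and 3. Insl3 was also highest in replicate 2. In XX E15.5 the sum was between 240 and 262.82 TPM. The part of steroidogenic cells in the Insl3 level was not tested.

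Nrarp, a target and inhibitor of Notch signalling, was at 0 counts in all XX E12.5 libraries and at 0.62, 0.78 and 1.63 TPM in XY E12.5. Against a floor of 3 counts over the group, it was at least 34.4-fold higher in XY, and it was called at both stages (adjusted p 0.00119 and 0.00445). Its XX E11.5 values were 1.18, 0.39 and 9.80 TPM, so a single library carried the early excess. In limma on log2(TPM + 1) the E12.5 call was lost (-0.97, adjusted p 0.0764), and with all genes above 0 TPM in that fit both were (-0.97 and -1.11, adjusted p 0.125 and 0.0728). Heyl, another Notch target, chosen after its values were seen, differed by -1.63 at E13.5 (SE 0.54, adjusted p 0.012) and was not called at E12.5 (-0.73, adjusted p 0.231).

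Transcription factors and chromatin proteins made up 15 members, of which 5 were higher in XY and 3 in XX at E12.5, and 9 and 1 at E13.5. Foxa3, a forkhead factor best known from liver and gut, had 4.42, 1.81 and 1.55 TPM in XX E11.5 and 0.94, 1.08 and 0.72 in XY E11.5. The XY libraries had 11.46, 8.95 and 7.56 TPM at E12.5 and 17.02, 18.6 and 21.8 at E13.5, and XX held at most 1.51 TPM at these stages. Its difference went from -3.34 (SE 0.36, adjusted p 6.72e-08) to -5.46 (SE 0.42, adjusted p 2.71e-10). Cbfa2t3, a corepressor, was the 1 factor higher in XX at both inner stages, by 1.22 (SE 0.31, adjusted p 0.00182) and 0.86 (SE 0.32, adjusted p 0.0224). It had 3.15, 4.35 and 1.98 TPM in XX E12.5 and 1.19, 0.74 and 1.2 in XY E12.5. At E13.5 it had 1.58, 1.87 and 1.16 TPM in XX and 1.48, 0.54 and 1.27 in XY, and the libraries overlapped. That call was lost without XX E13.5 replicate 2 (0.76, adjusted p 0.0726) or XY E13.5 replicate 2 (0.69, adjusted p 0.0781). It was also lost in limma, with 0.29 and 0.53 for pseudocounts of 1 and 0.1 (adjusted p 0.345 and 0.239) and 0.29 on all genes (adjusted p 0.461). Grhl3, a grainyhead factor, had 6.10, 2.68 and 7.19 TPM in XX E11.5 and between 2.27 and 2.73 TPM in XY E15.5, and was not called between the sexes at the inner stages (0.45 and 0.06, adjusted p 0.268 and 0.907).

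In 7 members, the pre-granulosa bias was still present at E12.5 and the Sertoli bias was in place at E13.5: Stard8, Scn3b, Ppp1r18, Rnf144b, Rhobtb2, Exoc3l and Cdk16. Rhobtb2, an atypical GTPase, had 25.7, 24.8 and 28.0 TPM in XX E11.5 and 5.27, 12.9 and 8.11 in XY E11.5. The next day it had 14.6, 15.9 and 11.3 TPM in XX and 2.76, 3.55 and 4.79 in XY, and at E13.5 3.32, 2.71 and 2.04 in XX and 4.27, 8.16 and 10.54 in XY. The groups did not overlap at any of these stages and changed places between E12.5 and E13.5. The difference went from 1.66 (SE 0.27, adjusted p 2.14e-05) to -1.28 (SE 0.28, adjusted p 0.000407), with a fall of 2.0 in XX (adjusted p 3.05e-05) and a rise of 0.93 in XY (adjusted p 0.0206). Scn3b, a beta subunit of voltage-gated sodium channels, went from 0.59 (SE 0.25, adjusted p 0.045) to -1.61 (SE 0.24, adjusted p 4.81e-06) through a rise of 2.41 in XY (adjusted p 1.1e-06). It had 1.33, 3.22 and 0.98 TPM in XX E12.5, 0.92, 0.61 and 0.84 in XY E12.5, 4.39, 4.60 and 3.91 in XY E13.5 and between 7.91 and 10.47 in XY E15.5. Its E12.5 call was lost when any 1 of 6 libraries was left out. These were XY E12.5 replicate 2 (0.48, adjusted p 0.144) and replicate 3 (0.56, adjusted p 0.102), XX E12.5 replicate 2 (0.62, adjusted p 0.0636), and XX E13.5 replicate 1, XX E13.5 replicate 3 and XX E15.5 replicate 1, each with 0.59 and adjusted p of 0.051, 0.053 and 0.0521.

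Cdk16, a kinase of the cyclin-dependent family that was picked after its values were seen, was the most abundant of these 7, with 267.8, 318.6 and 280.2 TPM in XX E12.5 and 126.4, 149.8 and 165.1 in XY E12.5. At E13.5 it had 132.8, 104.8 and 97.9 TPM in XX and 215.5, 211.9 and 245.2 in XY, again with no overlap and in the opposite order. Its differences were 0.74 (SE 0.17, adjusted p 0.000639) and -1.08 (SE 0.17, adjusted p 8.68e-06).

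Cpt1b, the muscle form of the mitochondrial carnitine palmitoyltransferase, lost its XX excess in the same interval. It had 13.1, 13.8 and 18.6 TPM in XX E12.5 and 3.56, 2.95 and 2.65 in XY E12.5 (2.13, SE 0.27, adjusted p 8.7e-07). At E13.5 it had 2.82, 3.42 and 2.42 TPM in XX and 5.09, 3.59 and 4.45 in XY, a difference that missed the threshold (-0.59, SE 0.28, adjusted p 0.0624) and passed it without XX E11.5 replicate 1 or replicate 2 (-0.58 in both, adjusted p 0.0364 and 0.0231). Dlgap3, a scaffold protein of synapses, had 3.58, 5.73 and 2.59 TPM in XX E12.5 and 2.75, 3.70 and 4.09 in XY E12.5, which overlapped. At E13.5 it had 0.85, 0.97 and 0.93 TPM in XX and 4.04, 3.93 and 6.74 in XY (-2.34, SE 0.36, adjusted p 9.57e-06), after a fall of 1.86 in XX (adjusted p 0.000605). Scg5, a chaperone of hormone-processing enzymes, was higher in XX at E12.5 (2.11, SE 0.60, adjusted p 0.00462), with 0.91, 0.52 and 2.01 TPM against 0.36, 0.22 and 0.11, and rose in XY by 2.90 (SE 0.58, adjusted p 0.0016). Fxyd5, a regulator of the sodium pump, was higher in XX at E12.5 by 2.5 (SE 0.68, adjusted p 0.00313) at levels of at most 1.55 TPM, and rose in XY by 2.10 (SE 0.70, adjusted p 0.0435). Both Fxyd5 results rest on few reads, with XY counts of 2, 1 and 2 at E12.5 and 9, 1 and 14 at E13.5. The XY E13.5 library of replicate 2 was as low as those of XY E12.5.

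The pre-granulosa side held at both inner stages in Slc41a3, Hspa1a, Hspa1b and Cbfa2t3. Slc41a3, a magnesium transporter, had 26.9, 24.3 and 23.0 TPM in XX E12.5 and 3.36, 4.17 and 3.77 in XY E12.5, then 21.7, 21.3 and 18.2 in XX E13.5 and 11.3, 10.53 and 10.8 in XY E13.5. The XX groups lay above the XY groups up to E13.5 and below them at E15.5, with between 9.01 and 14.6 TPM against 33.8 to 35.6. The difference was 2.5 (SE 0.25, adjusted p 2.32e-08) and then 0.96 (SE 0.23, adjusted p 0.00113), as the XY level rose by 1.49 (SE 0.25, adjusted p 0.000251). Hspa1a, an inducible heat shock protein of the HSP70 family, had 1272, 506.4 and 159.9 TPM in XX E11.5 and 297.5, 304.6 and 466.1 in XY E11.5, which overlapped. It had 411.3, 448.0 and 1439 TPM in XX E12.5, between 832.4 and 862.4 in XX E13.5 and between 90.2 and 155.6 in XX E15.5. Its XY range was 24.5 to 30.2 TPM at E12.5, then 63.8 to 68.5 at E13.5 and finally 439.5 to 445.5 at E15.5. The differences were 4.58 and 3.71 (SE 0.56 and 0.53, adjusted p 6.73e-07 and 4.78e-06), and those of Hspa1b were 3.41 and 2.95 (SE 0.55 and 0.54, adjusted p 2.46e-05 and 7.65e-05). Hspa1b had 32.5, 38.1 and 122.1 TPM in XX E12.5 and at most 5.88 TPM in XY E12.5, and the 2 genes were high in the same XX E12.5 library, replicate 3.

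Hspa1a and Hspa1b are near-identical copies 9952 bases apart on chromosome 17, so the division of reads between them is uncertain. Both belong to the list of 13 immediate-early and dissociation genes, which includes their own values. The sum of that list was between 7575.9 and 9068 TPM in XX E13.5 and between 3497.1 and 4271.1 in XY E13.5, and at E15.5 between 4290.3 and 5294.8 in XX and between 6995.7 and 7509.5 in XY. At the earlier stages the sexes overlapped, with 4596.5 to 8040.4 TPM in XX and 3064.4 to 4974.9 in XY for E12.5, and 1283.3 to 7487.8 in XX and 3829.9 to 4982.1 in XY for E11.5. Of the 13 genes, 11 had the higher mean in XX E13.5, all but Egr1 and Nr4a1, and 11 had the higher mean in XY E15.5. The part of tissue handling in their levels was not tested.

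Chga, which encodes the chromogranin A of hormone-storing granules, was the 1 member called higher in XX at E13.5 only. It had 8.76, 40.8 and 12.4 TPM in XX E11.5 and at most 0.55 TPM in XY E11.5. The E12.5 values were 0.39, 0.78 and 0.71 TPM in XX and 1.08, 1.29 and 0.99 in XY, and those of E13.5 were 3.41, 1.76 and 2.89 in XX and 0.53, 0.76 and 0.78 in XY, so the order of the groups reversed 3 times over the 4 stages. The E12.5 difference was -1.05 (SE 0.52, adjusted p 0.0845), passing the threshold without XX E11.5 replicate 2 (-0.98, adjusted p 0.0144), and the E13.5 difference was 1.97 (SE 0.49, adjusted p 0.00133). Dusp8, a phosphatase of MAP kinases, rose in XX by 2.55 (SE 0.55, adjusted p 0.00135) from 0.58, 0.48 and 0.84 TPM to 2.39, 2.54 and 4.68 TPM. It was higher in XY at E12.5 by 2.84 on the log2 scale (adjusted p 0.000134). Its E13.5 difference was -1.13 (adjusted p 0.0431), and leaving out 1 library ended that call in 16 of 24 cases, with adjusted p up to 0.162. Elavl4, an RNA-binding protein best known from neurons, had 5.65, 3.66 and 11.9 TPM in XX E11.5, at most 1.55 TPM in XX E12.5 and between 2.6 and 4.0 TPM in XY E12.5. It differed by -1.76 at E12.5 (adjusted p 0.000115) and by -0.94 at E13.5 (adjusted p 0.0184), the latter lost without XX E13.5 replicate 2 or 3 or XY E13.5 replicate 1 or 2 (adjusted p between 0.0515 and 0.0746).

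Rab27a, a GTPase of secretory granules, had 5.15, 3.81 and 3.73 TPM in XY E12.5 and 2.37, 2.5 and 2.53 in XX E12.5 (-1.02, SE 0.31, adjusted p 0.0075), and at E13.5 it was not called (-0.37, SE 0.31, adjusted p 0.303). Slc2a3, the glucose transporter GLUT3, had 51.1, 10.4 and 15.7 TPM in XX E11.5, between 1.82 and 4.23 in XY E11.5, between 2.71 and 7.56 in both sexes at the inner stages, and at least 8.61 in XY E15.5 against 1.40 to 3.08 in XX E15.5. Its inner-stage differences were 0.27 (SE 0.45, adjusted p 0.623) and 0.21 (SE 0.45, adjusted p 0.694). Kif26a, an atypical kinesin, fell in both sexes from E12.5 to E13.5, by 1.60 in XX (SE 0.30, adjusted p 0.00048) and by 1.63 in XY (SE 0.30, adjusted p 0.000783). It went from 16.3, 12.9 and 11.1 to 2.84, 2.55 and 2.49 TPM in XX and from 7.08, 14.7 and 10.1 to 3.17, 2.69 and 3.28 TPM in XY, with the sexes overlapping at E12.5.

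As above, 31.5% of all genes tested were higher in XY and 30.5% in XX for E12.5, and 33.3% and 32.8% for E13.5. Of the remaining roles, receptors and signalling held 19 members, with 11 higher in XY and 4 in XX at E12.5, then 12 and 0 at E13.5. Channels and transporters held 10, with 4 and 2 at the first of these stages and 8 and 1 at the second. Secreted factors held 8, with 3 and 1 and then 4 and 1. Enzymes held 5, with 2 and 2 and then 4 and 0. For E12.5, the counts of channels, enzymes and secreted factors are thus near the shares of all genes, as are those of matrix members and transcription factors above. The largest medians at E13.5 were in the immune and blood role, -2.74, and the smallest in the secreted factors, -1.04, so all roles lay on the XY side, and no difference between roles was tested.

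The first-ranked member was the microRNA gene Mir6236. It had 304.0, 394.7 and 546.1 TPM in XX E11.5, 21.8, 22.5 and 7.83 in XY E11.5, 0 in the 3 XX E15.5 libraries and 22.4, 17.6 and 6.07 in XY E15.5. These TPM rest on at most 280 counts in a library because the gene is short, and libraries of polyadenylated RNA do not measure mature microRNAs. It was called higher in XY at E13.5 (-2.52, SE 0.83, adjusted p 0.0123), a call that was lost without XY E13.5 replicate 3 (-1.54, adjusted p 0.139). The mature sequence is shown because it identifies the gene and lets its reads be compared with other transcripts, with the seed (bases 2 to 8) in capitals, at chr9:110281353-110281371 on the plus strand of GRCm38.p6 in RefSeq.
mmu-miR-6236: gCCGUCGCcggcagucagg
Mir6357 and Mir1903, also among the first 12 in rank, had at most 5.32 and 2.45 counts, so their TPM rest on very few reads. Mir6357 had 6.26, 0 and 18.82 TPM in XX E11.5 and 8.82, 1.64 and 2.98 TPM in XY E15.5. Mir1903 had 31.08, 9.94 and 0 TPM in XX E11.5, and in XY E15.5 it was at 53.14 TPM in replicate 2 and listed at 0 in the other 2.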

How the data were processed

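Polyadenylated RNA of sorted cells was amplified with a low-input kit before sequencing, per the labels' protocols, with no molecular identifiers described. The authors deposited estimated counts per gene and TPM per gene, and reads were placed on mm10, per the submitters' processing notes. The aligner, the counting program and the use of strand are not given in the sources used here. Of the deposited count values, 17.5% were not whole, and all were rounded. Totals were between 11275251 and 37256881 counts per library. Low genes have wide errors. The floors cover counting error only, while each SE comes from the quasi-likelihood fit and also holds the spread between libraries.

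Libraries were grouped by title. XX E13.5 replicate 1 carries E12.5 in 1 label field and E13.5 in its title, and was kept at E13.5. No 2 libraries of a group held the same counts. Members were ranked on the deposited TPM (pseudocount 1). Counts were tested in edgeR 4.0.16 (R 4.3.3) with filterByExpr, TMM scaling and a robust quasi-likelihood fit of 8 groups on all 24 libraries (16190 genes, 16 residual degrees of freedom), with Benjamini-Hochberg adjustment over all genes tested and calls at adjusted p under 0.05. The fit was also tried on simulated counts with the same spread for every gene and group. The spread between the real libraries differed among groups, so that trial does not show how the fit performs on them. Alternatives used DESeq2 1.42.0, limma 3.58.1 on log2(TPM + 1) and log2(TPM + 0.1), other filters, scaling and thresholds, a replicate block, the 12 inner-stage libraries alone and leaving out each library.

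The members and gene lists were chosen with earlier results of these data known. The role of each member was given from its symbol after group means had been seen. Genes named with values were the first 12 in rank, the 4 called members with the largest difference in each direction at E12.5 and E13.5, those higher in XX at both, the 3 with the largest step in each direction and sex, and the last 3 inside the list. A few members are counted but not reported here by name, and 1 of them is left out of the plot of inner-stage differences. Other genes are said to be chosen after their values were seen. Of the erythroid list, 8 of 9 symbols were found. Positions came from GENCODE M21 (99 members matched) and sequences from RefSeq on GRCm38.p6.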

Additional observations from a re-analysis of the deposited data

Results flagged for a closer look

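In 15 members described with values, the XX minus XY log2 difference changed between E12.5 and E13.5 by a test of the change itself (edgeR, adjusted over all genes tested). Most of the 15 were named for large differences or steps at these same stages, or after their values were seen. Their number is thus favoured by the choice, and nothing is read from it. Over all 94 members tested, 35 moved towards XY (37.2%, against 13.8% of all genes tested) and 3 towards XX (3.19%, against 11.3%). Of the 15, the difference moved towards XY in 13. Alas2, of heme synthesis, moved by -2.95 (adjusted p 0.011), Rhobtb2, an atypical GTPase, by -2.94 (adjusted p 2.8e-05), and Cpt1b, of fatty acid import into mitochondria, by -2.72 (adjusted p 5.01e-05). Dlgap3, a synaptic scaffold, moved by -2.3 (adjusted p 0.00167), Scn3b, a sodium channel subunit, by -2.21 (adjusted p 0.000118), Foxa3, a forkhead factor, by -2.13 (adjusted p 0.00723) and Tubb3, a tubulin, by -2.05 (adjusted p 0.00429). Arhgap9, a GTPase-activating protein, moved by -1.74 (adjusted p 0.0245) and Slc41a3, a magnesium transporter, by -1.54 (adjusted p 0.00205). Of the members chosen after their values were seen, Bcam, an adhesion molecule, moved by -1.95 (adjusted p 0.000449), Cdk16, a kinase, by -1.82 (adjusted p 2.26e-05), Jak3, of cytokine signalling, by -1.69 (adjusted p 0.00187) and Rac2, of blood cells, by -1.58 (adjusted p 0.0074). The difference moved towards XX in Chga, by 3.02 (adjusted p 0.00362), and in Pik3ap1, by 0.85 (adjusted p 0.0445). In Rhobtb2, Scn3b and Cdk16 the called side changed from XX to XY, while in Tubb3, Foxa3 and Alas2 both stages were higher in XY.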

How the results depend on the processing

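The counts of members called at E12.5 and E13.5 stayed within 1.5 times the reported value under most alternatives. The exceptions were counts of few members and the count of members that rose in XY, which was 28 in the reported fit. Where calls also needed an absolute log2 difference of 1, 3 members were higher in XX at E13.5 and 3 fell in XY. With at least 10 counts in every library, 2 rose in XX and 18 in XY, and limma on all genes with a TPM above 0 also gave 18 in XY. With only the 12 inner-stage libraries, 8 rose in XX and 7 moved towards XX, and DESeq2 gave 5 for the latter. Among the 46 members kept without any 1 library, of which 45 were tested, 4 were higher in XX at E13.5, an alternative chosen after seeing the data, as was leaving out the blood and short RNA genes. A pseudocount of 0.1 kept 57 members. The cause of these shifts was not tested, other than that filters and subsets test fewer genes.

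Leaving out each of 24 libraries gave 16 to 20 members higher in XX and 34 to 42 higher in XY for E12.5, and for E13.5 4 to 7 and 59 to 71. In XX, 4 to 5 rose and 20 to 32 fell. In XY, 21 to 33 rose and 2 to 9 fell, with 2 where XY E12.5 replicate 2 or XY E13.5 replicate 3 was left out, and 3 where XY E12.5 replicate 3, XY E13.5 replicate 1 or XY E13.5 replicate 2 was. Between 1 and 5 moved towards XX, with 5 without XX E11.5 replicate 2 and 1 without XX E12.5 replicate 2, XY E12.5 replicate 2 or 3, XX E13.5 replicate 2 or XY E13.5 replicate 3, and 30 to 44 towards XY. The ranking kept 75 to 97 members.

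Differences near 0 changed sign in genes that were not called. Dlgap3 at E12.5 was 0.01 with DESeq2 and with its size factors, 0.07 with at least 10 counts, 0.1 and 0.12 in limma with pseudocounts 1 and 0.1, 0.1 on all genes, 0.03 with the inner-stage libraries alone and from -0.34 to 0.24 with 1 library left out. Scg5 at E13.5 was -0.03 with the replicate block, -0.02, -0.06 and -0.02 in limma, and from -0.27 to 0.44 with 1 library left out. Kif26a ran from -0.09 to 0.39 for E12.5 with 1 library left out, and its E13.5 value was -0.16, -0.2 and -0.16 in limma and -0.02 to 0.3 with 1 library left out. Grhl3 at E13.5 was -0.04 without XY E13.5 replicate 3 and ran from -0.09 (without XX E13.5 replicate 1) to 0.3, and Mir6236 at E12.5 between -1.11 and 0.1 (the latter without XY E12.5 replicate 2). Insl3 ran from -0.82 to 0.28 for E12.5 and from -1.26 to 0.58 for E13.5 with 1 library left out, the highest values without XY E12.5 replicate 2 and XY E13.5 replicate 2. Bcam at E12.5 ran from -0.38 to 0.04, and in limma Bcam at E12.5 and Rac2 at E13.5 (pseudocount 1) came to 0.0. Other calls lost outside the left-out libraries include those of Alas2 at E12.5 (-1.19, adjusted p 0.0771) and Pik3ap1 at E13.5 (-0.47, adjusted p 0.0524), both in limma on all genes, Scn3b at E12.5 without a filter (0.6, adjusted p 0.0643) and Dusp8 at E13.5 under 4 settings (adjusted p 0.0529 to 0.0829). With the inner-stage libraries alone, the E12.5 differences of Sptb, Arhgap9, Chga and Heyl and the E13.5 difference of Cpt1b passed the test (adjusted p 0.00449 to 0.0398).

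Replicate numbers recur across groups, but no label says what they share, and deviations of same-numbered XX and XY libraries correlated by between -0.043 and 0.298, so they were not taken as pairs. With the replicate block, 19 members were higher in XX and 40 in XY for E12.5, 5 and 68 for E13.5, 4 rose and 27 fell in XX, 27 rose and 6 fell in XY, and 3 and 35 moved towards XX and XY.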

Other observations

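Of the 99 members placed on the annotation, 11 lay on chromosome 8 (11.1%, against 5.26% of expressed genes) and 10 on chromosome 4 (10.1%, against 6.25%). These chromosomes are given because they held the most members, which was seen first, and their shares were not tested. Exons of 41 members overlapped those of another gene, among them Alas2 with Apex2 and Sptb with Plekhg3 on opposite strands. Jak3, Insl3 and Fcho1 lie next to each other on chromosome 8, with at most 17812 bases between them, as do Nfic and Mfsd12 on chromosome 10, 29961 bases apart. Jak3, a kinase of cytokine receptors, had 2.91, 2.62 and 2.60 TPM in XY E13.5 and 0.92, 0.48 and 0.34 in XX E13.5, while Insl3 had at most 1.39 TPM there, and both were chosen here after their values were seen. Bcam, an adhesion molecule that binds laminin, also chosen after its values were seen, fell in XX from 38.8, 64.7 and 41.0 TPM at E12.5 to 16.5, 12.1 and 14.3 TPM at E13.5 (-1.51, adjusted p 0.000185 in edgeR), while in XY it had between 40.2 and 79.6 TPM at these stages.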
